A study of Homo sapiens with 2 samples.

Results

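The 10 genes described here encode carriers that bring amino acids across the plasma membrane, from the solute carrier families SLC1, SLC3, SLC7 and SLC38: SLC7A11, SLC7A5, SLC3A2, SLC7A1, SLC7A6, SLC1A4, SLC1A5, SLC38A1, SLC38A2 and SLC7A3. They were taken by gene symbol from a table of 40205 genes, and all 10 were found in it. The table holds RNA-seq of RKO, a human cell line established from a colorectal carcinoma, in 2 libraries. The control library came from cells given the siRNA labelled siNC, and the knockdown library from cells given the siRNA labelled sihnRNPU, which targets the RNA-binding protein hnRNPU. No other agent, dose or time is given, and the labels do not say whether sihnRNPU was a single siRNA or a pool. Each group held 1 library. "Higher" and "lower" therefore describe these 2 libraries, no p-value can be computed, and no difference below has a replicate check. In a bulk library, fewer cells that hold an mRNA and less of it per cell cannot be told apart.

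Values are FPKM, fragments scaled to transcript length and to library depth, so levels can be compared between genes. The steps between low values gave an inferred depth of 31801650 reads for the control and 39807025 for the knockdown. In these libraries 11607 and 11462 genes reached 1 FPKM. HNRNPU, the target, stood at 239 FPKM in the control library against 75.4 FPKM in the knockdown library, 31.5% of the control level. The epithelial genes EPCAM (13.8 and 13.7 FPKM) and KRT18 (88.1 and 81.6 FPKM) were present, while CDH1 and CDH17 were listed at 0 in both libraries and VIL1 reached at most 0.0092 FPKM. Of 19 markers of blood, fibroblast, endothelial, muscle, neural and hepatic cells none exceeded 0.027 FPKM in either library, and the defining genes PTPRC, PECAM1 and ALB were listed at 0 in both.

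Cells hold their amino acid pool through carriers of different kinds. Sodium-coupled carriers such as SLC38A1 and SLC38A2 load the cell with small neutral amino acids, above all glutamine. Exchangers such as SLC7A5, SLC7A11, SLC1A4 and SLC1A5 trade an internal amino acid for an external one and so change the composition of the pool. SLC7A5, SLC7A6 and SLC7A11 reach the cell surface only when bound to the glycoprotein SLC3A2, the heavy chain also known as CD98 or 4F2hc. When amino acids run short, the transcription factor ATF4 raises the transcription of several of these genes through C/EBP-ATF response elements, and tumour cells often hold high levels of SLC7A5, SLC1A5 and SLC7A11.

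The core letters of that element, TGATGNAA, were looked for on both strands in RefSeq promoter windows of 300 bases (250 before and 50 after each annotated start, build GRCh38.p14). Windows were held for 8 of the 10 genes, 14 windows in all. The letters occurred in 5 of these 14 windows (35.7%), 1 each in 5 genes, against 1270 of all 35116 windows (3.62%). SLC1A5 and SLC3A2 had 3 windows each, and SLC1A4 and SLC38A1 had 2 each, so the windows are not independent. The genes were chosen with earlier results of these data known, and several are known to respond to ATF4. The 2 shares are therefore a description and no test. The letters were absent from the windows of SLC7A5, SLC7A6 and SLC38A2, and SLC7A11 and SLC7A3 were not searched. No bases outside the windows were searched, so an element elsewhere in any of these genes would be missed. A match of these letters is a description of the sequence, and whether ATF4 bound there was not measured. Whether the matches bear on the carrier levels described below was not tested. Each is printed 5′ to 3′ on the strand that reads the element, with the match in capitals.
SLC3A2: ggagcTGATGTAAggagtcctgca
SLC1A4: ccggctggagaTGATGCAAacgggagccgc
SLC1A5: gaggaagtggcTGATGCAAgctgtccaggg
SLC7A1: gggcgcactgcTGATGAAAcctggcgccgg
SLC38A1: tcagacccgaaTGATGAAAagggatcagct
The SLC3A2 stretch lies at chr11:62881725-62881748 and reads against the gene, at positions 38 to 45 after the start. The SLC1A4 stretch, at chr2:64989381-64989410, also reads against the gene and spans the start, from -7 to 1. The SLC1A5 stretch, at chr19:46784893-46784922, reads with the gene at -97 to -90 of 1 of its 3 windows. The SLC7A1 stretch, at chr13:29595663-29595692, reads with the gene at 8 to 15, within the first exon. The SLC38A1 stretch, at chr12:46266502-46266531, reads with the gene and spans the start, from -4 to 4. All coordinates in this paragraph are of GRCh38.p14, those of the genes below are of GRCh37 as the deposited table gives them.

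Across the 10 carriers, the knockdown library held less mRNA of 8 and more of 1, and 1 was not detected. For 1 of the 8, SLC38A2, the difference was within counting error. Among all genes, 7958 reached 5 FPKM in the higher library, and 3671 of these were lower in the knockdown library. SLC7A11, SLC1A4, SLC7A5 and SLC3A2 were lowest relative to the control. SLC38A1 and SLC38A2, the most abundant carriers, stood at 84.0% and 98.5% of the control level. SLC7A6 alone was higher. The summed level of the 10 genes was 427 FPKM in the control library against 340 FPKM in the knockdown library, 79.5% of control.

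**Figure D1:**
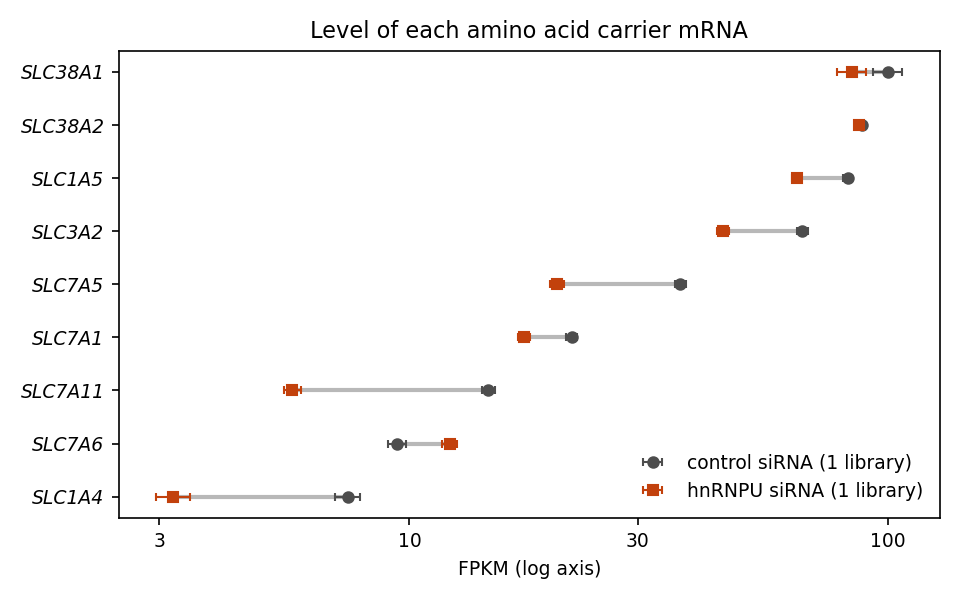
Level of each detected carrier in FPKM (log axis) in the control siRNA library (circles) and the hnRNPU siRNA library (squares); bars are 95% Poisson counting intervals of 1 library each. SLC7A11 and SLC1A4 show the widest gaps, SLC38A2 lies at the same place in both libraries, and SLC7A6 is the only gene whose square lies to the right.

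The heavy chain and its partners come first. SLC3A2 (chromosome 11, 62648344 to 62656355, plus strand) stood at 66.3 FPKM in the control library against 45.2 FPKM in the knockdown library, 68.2% of control. The FPKM ratio of 0.682 had an exact 95% counting interval of 0.654 to 0.711, from 4943 and 4219 reads. Such intervals cover counting error only, taken as if each read were an independent count. The reads are not counts of single molecules, so the intervals can be too narrow. The intervals also say nothing of the variation between cultures.

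SLC7A11, or xCT, imports cystine in exchange for glutamate and so feeds cysteine to glutathione synthesis. It lies on chromosome 4, 139101862 to 139163572, minus strand. Its level was 14.6 FPKM in the control library against 5.69 FPKM in the knockdown library, 38.9% of control. This was the lowest ratio among the carriers, with a counting interval of 0.369 to 0.409 from 4488 and 2185 reads. The neighbouring antisense gene SLC7A11-AS1, 2531 bases away, was listed at 0 in the control library and at 0.011 FPKM in the knockdown library.

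SLC7A5, or LAT1, exchanges internal glutamine for leucine and other large neutral amino acids (chromosome 16, 87863629 to 87903100, minus strand). It stood at 36.8 FPKM in the control library against 20.4 FPKM in the knockdown library. That is 55.3% of control, with a counting interval of the ratio of 0.530 to 0.577. The recovered number of reads was 5320 in the control library against 3680.5 in the knockdown library. A fraction of a read can arise where the counting splits reads among similar genes, and SLC7A5 has partial copies on the same chromosome. These copies were low, with SLC7A5P1 at 0.989 FPKM in the control library against 1.32 in the knockdown library, and SLC7A5P2 at 1.38 and 1.19 FPKM.

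SLC7A6, or y+LAT2, sends arginine out of the cell in exchange for glutamine and sodium (chromosome 16, 68298419 to 68321640, plus strand). It went the other way from the other partners of SLC3A2. Its level was 9.42 FPKM in the control library against 12.1 FPKM in the knockdown library, 129% of control. The counting interval of the ratio was 1.22 to 1.36, from 1904.5 and 3069 recovered reads, again with a fraction of a read if the recovered length is right. SLC7A6OS, a separate gene on the opposite strand whose listed span does not overlap SLC7A6, stood at 9.44 and 7.80 FPKM.

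The level of the heavy chain and the sum of its light chains stayed close to each other. The light chains SLC7A5, SLC7A6 and SLC7A11 summed to 60.9 FPKM in the control library against 38.2 FPKM in the knockdown library, 62.7% of control. The sum was 0.918 of the SLC3A2 level in the control library against 0.844 in the knockdown library. Its make-up differed more. SLC7A6 supplied 15.5% of the light chain sum in the control library against 31.8% in the knockdown library. SLC7A11 supplied 24.0% and 14.9%, and SLC7A5 60.5% and 53.3%. SLC7A7 and SLC7A8, further light chains of SLC3A2, reached at most 0.035 FPKM, and SLC7A10 was listed at 0 in both libraries.

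**Figure D2:**
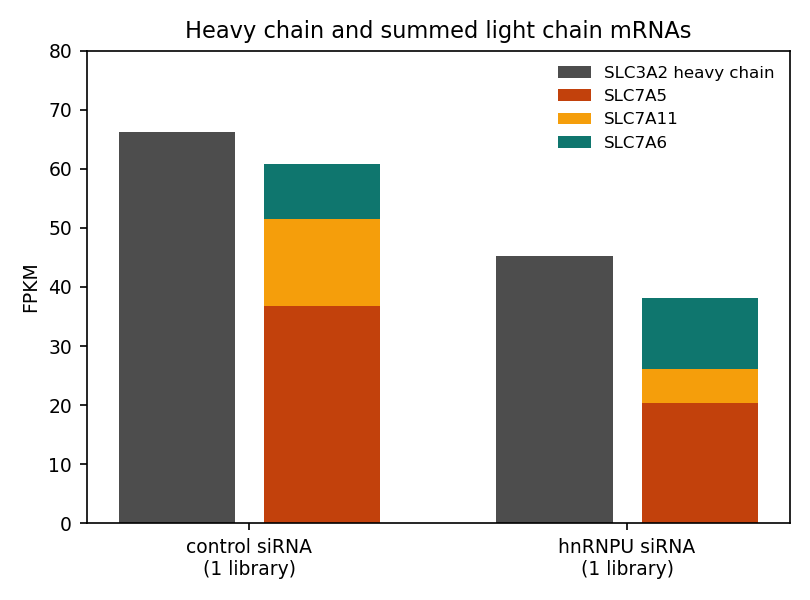
FPKM of the heavy chain SLC3A2 (grey bars) beside the stacked FPKM of its light chains SLC7A5, SLC7A11 and SLC7A6, for the control siRNA library (left) and the hnRNPU siRNA library (right), 1 library each and no error bars. The stack is 60.9 FPKM on the left and 38.2 FPKM on the right, and the SLC7A6 segment is the only one that is taller on the right.

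The related exchangers of the SLC1 family had unlike ratios. SLC1A4, or ASCT1, which exchanges alanine, serine and cysteine (chromosome 2, 65215579 to 65250999, plus strand), was the least abundant carrier detected. It stood at 7.43 FPKM in the control library against 3.21 FPKM in the knockdown library, 43.2% of control. The counting interval of its ratio, 0.390 to 0.478 from 1087 and 588 reads, overlapped that of SLC7A11. SLC1A5, or ASCT2, the main glutamine exchanger of many tumour cells (chromosome 19, 47278140 to 47291842, minus strand), stood at 82.4 FPKM in the control library against 64.5 FPKM in the knockdown library. That is 78.3% of control, with a counting interval of 0.758 to 0.808 that lay above that of SLC1A4. SLC1A5 was 11.1 times as abundant as SLC1A4 in the control library against 20.1 times in the knockdown library.

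The sodium-coupled carriers differed little. SLC38A1, or SNAT1 (chromosome 12, 46576838 to 46663208, minus strand), stood at 100.1 FPKM in the control library against 84.0 FPKM in the knockdown library. Its ratio of 0.840 had a counting interval of 0.761 to 0.927, which is at its widest because only the smallest possible number of reads, 783 and 823, could be recovered for this gene. SLC38A2, or SNAT2, its neighbour 88763 bases away on the same strand (46751971 to 46766645), stood at 88.4 FPKM in the control library against 87.1 FPKM in the knockdown library. Its interval of 0.963 to 1.01, from 13735 and 16929 reads, included 1. SLC38A2 was the member closest to its control level. Its mRNA, like that of several other members, is known to be induced by amino acid shortage. Whether that bears on its level here was not tested.

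Of the cationic amino acid carriers, which need no heavy chain, 1 was detected. SLC7A1, or CAT1, which takes up arginine, lysine and ornithine (chromosome 13, 30083551 to 30169825, minus strand), stood at 21.8 FPKM in the control library against 17.3 FPKM in the knockdown library. Its ratio of 0.794 had a counting interval of 0.764 to 0.826, from 5100 and 5071 reads. SLC7A3, or CAT3, on the X chromosome (70145429 to 70150975), was listed at 0 in both libraries. A count of 3 reads was taken as an approximate limit for a gene with no reads. Over the longest annotated SLC7A3 transcript of 2236 bases it would have been 0.0422 FPKM in the control library against 0.0337 FPKM in the knockdown library. A shorter transcript would give a higher limit. SLC7A2, or CAT2, a relative of SLC7A3, was at 3.34 FPKM in the control library against 5.62 FPKM in the knockdown library.

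**Figure D3:**
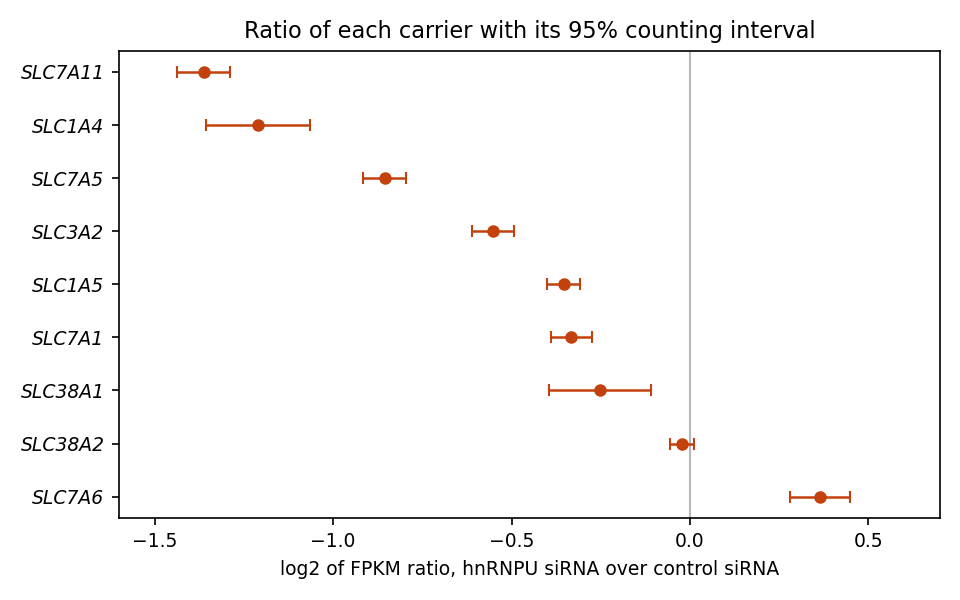
Log2 of the FPKM ratio of the hnRNPU siRNA library over the control siRNA library for the 9 detected carriers, with exact 95% counting intervals from the recovered reads; the vertical line marks equal levels. The intervals of SLC7A11 and SLC1A4 overlap each other, those of SLC1A5 and SLC7A1 overlap each other, that of SLC38A1 is drawn at its widest, that of SLC38A2 includes the line, and that of SLC7A6 lies to its right.

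Ordered by ratio, the carriers formed steps that counting error could separate in part. SLC7A11 and SLC1A4 were lowest and not separated from each other. SLC7A5 (interval 0.530 to 0.577) and SLC3A2 (0.654 to 0.711) followed, each apart from its neighbours. The intervals of SLC1A5 and SLC7A1 overlapped. Whether SLC38A1 stands apart from them cannot be read from its interval, which is an upper bound on the counting error. By level, the order in the control library was SLC38A1, SLC38A2, SLC1A5, SLC3A2, SLC7A5, SLC7A1, SLC7A11, SLC7A6, SLC1A4. In the knockdown library SLC38A1 and SLC38A2 changed places, as did SLC7A11 and SLC7A6. In the knockdown library the counting interval of SLC38A2 was 85.8 to 88.4 FPKM, and that of SLC38A1 was at most 78.4 to 90.0 FPKM, so whether counting error separates them is not settled. The intervals of SLC7A11 (5.45 to 5.93 FPKM) and SLC7A6 (11.7 to 12.6 FPKM) did not overlap. The most abundant carrier was 13.5 times the least abundant in the control library against 27.1 times in the knockdown library. SLC38A1, SLC38A2 and SLC1A5 together made up 63.4% of the summed carrier level in the control library against 69.4% in the knockdown library.

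To set the carriers beside all other genes, log2 ratios of (FPKM + 1) were used, which understate the difference of low genes. Of the 10 carriers, 9 reached 5 FPKM in the higher library, as did 7958 of all genes. SLC1A4 met this level through the control library alone. Of the 9, 4 had a log2 ratio of -0.5 or less, a rule met by 493 of the 7958 genes (6.2%). They were SLC7A11 (-1.22), SLC1A4 (-1.001), SLC7A5 (-0.82) and SLC3A2 (-0.54), and the next, SLC1A5, lay at -0.35. Of these, 2 had a ratio of -1 or less, a rule met by 60 genes (0.754%). SLC1A4 was the last of those 60, so its place within this rule is marginal. None of the 9 reached 0.5, a ratio that 488 genes (6.13%) met, and SLC7A6 was highest at 0.33. The median of the 9 carriers was -0.35, against 0.03 over all 7958 genes. SLC7A11 held place 22 from the bottom of the 7958, SLC7A5 place 108 and SLC3A2 place 412, while SLC38A2 at place 3436 was among the bulk of genes.

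**Figure D4:**
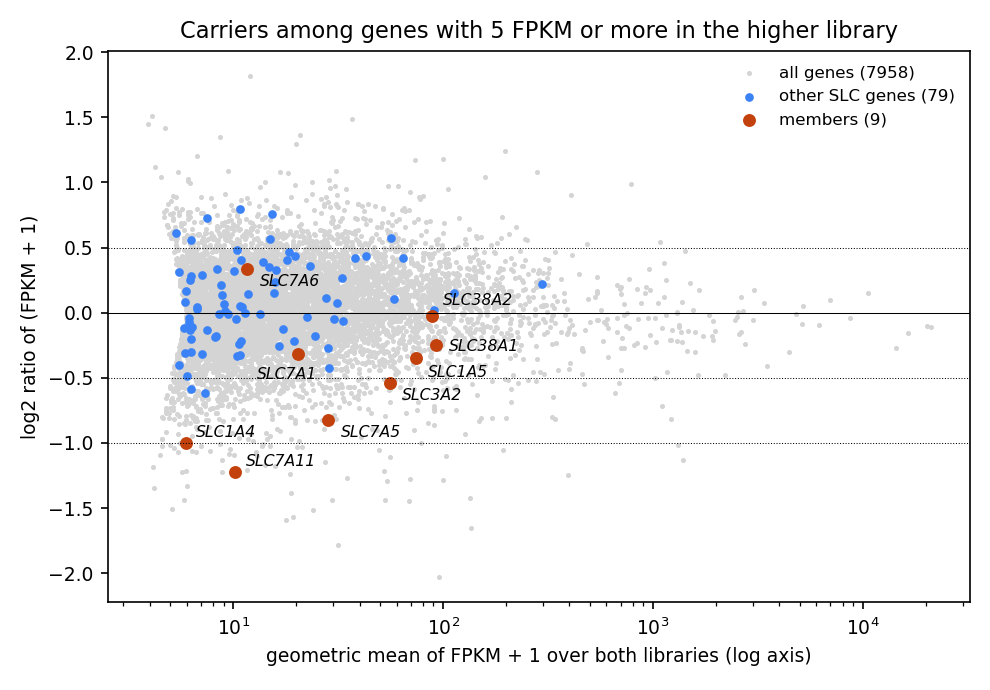
Log2 ratio of (FPKM + 1), hnRNPU siRNA over control siRNA, against the geometric mean of FPKM + 1 (log axis) for 7958 genes (grey), 79 other SLC genes (blue) and the 9 measured carriers (red); dotted lines mark -1, -0.5 and 0.5. SLC7A11 and SLC1A4 lie at or below -1, and the other SLC genes lie between -0.62 and 0.79.

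The carriers can also be set beside the remaining solute carriers. The table held 334 genes with SLC names, of which 88 reached 5 FPKM in either library. At a log2 ratio of -0.5 or less were 4 of the 9 carriers and 2 of the 79 others, SLC9A7, a sodium/proton exchanger (-0.62), and SLC38A9 (-0.58). SLC7A11, SLC1A4 and SLC7A5 had the lowest ratios of all 88. The 79 others had a median of 0.05, and 7 of them lay at 0.5 or above. The summed level of all 324 SLC genes outside the 10 was 1672 FPKM in the control library against 1832 FPKM in the knockdown library, while that of the 10 carriers was 427 and 340 FPKM. The carriers had been chosen with these ratios known, so this contrast is a description.

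Other amino acid carriers of the plasma membrane were mostly silent in RKO cells. Of 29 such genes, 16 were listed at 0 in both libraries and 4 reached 5 FPKM. SLC7A2 was highest, with a log2 ratio of 0.61, and was the only one past 0.5. It met the 5 FPKM level through the knockdown library alone. SLC6A6, the taurine carrier, lay at 0.32, and SLC38A5, a carrier of glutamine, at 0.07 (29.4 FPKM in the control library against 31.0 in the knockdown library). SLC43A1, a carrier of large neutral amino acids that works without a heavy chain, lay at -0.32. The median of these 4 was 0.19.

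Among genes that reached 5 FPKM, carriers of inner membranes did not share the lower levels as a list. Of 11 genes of lysosomal and other inner membranes, 5 were measured, with a median of -0.12 and 1 at -0.5 or less. That gene was SLC38A9, a lysosomal arginine sensor and carrier, at 6.74 FPKM in the control library against 4.17 FPKM in the knockdown library, followed by MFSD12 (-0.46), a lysosomal cysteine carrier. SLC38A10 (0.13) and SLC38A7 (0.25) were highest. Of 14 mitochondrial amino acid carriers, 8 were measured, with a median of -0.01 and none at -0.5 or less. They ran from SLC25A44 and SFXN3, both at -0.24, to SLC25A38 (0.47) and the glutamate carrier SLC25A22 (0.73). Below 5 FPKM, SLC25A40 stood at 61.3% of control, SLC25A29 at 68.7% and SFXN2 at 91.0%, while SLC25A15 stood at 123%. Among glucose and monocarboxylate carriers and their chaperones, 6 of 13 were measured, with a median of 0.07. The lactate exporter SLC16A3 (-0.43) and the chaperone EMB (-0.14) were lowest, and BSG (0.20), which chaperones monocarboxylate carriers, and the glucose carrier SLC2A1 (0.24) were highest.

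The enzymes that take up what these carriers import showed no common direction. Of 15 genes of glutathione and thioredoxin, which depend on the cysteine that SLC7A11 supplies, none lay at -0.5 or less and none at 0.5 or above, and their median was 0.10. GGCT (-0.29) and GPX4 (-0.28), the peroxidase that reduces lipid peroxides, were lowest, and SRXN1 (0.44) and the glutathione reductase GSR (0.46) were highest. Of 19 enzymes that use or make glutamine and glutamate, 16 were measured, with a median of 0.06. The asparagine synthetase ASNS (-2.03) and the aspartate aminotransferase GOT1 (-0.57) were lowest, and ALDH18A1, which starts proline synthesis, lay at 0.48.

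Genes of amino acid sensing upstream of the kinase complex mTORC1 centred on 0.05 over 21 measured members of 33. RRAGC, a Rag GTPase, was lowest (-0.61), followed by C7orf60 (-0.59). SESN2, the leucine sensor, also lay below -0.5 (-0.56) and was named after its value was seen. The GATOR2 subunits SEC13 (0.46) and SEH1L (0.48), which also belong to other complexes, were highest.

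The list that lay lower than the carriers was that of ATF4 and ATF4-dependent amino acid response genes other than carriers. Of 30 genes 23 were measured, 13 of them at -0.5 or less and 7 at -1 or less, with a median of -0.56. ASNS and PHGDH, which starts serine synthesis (-1.44), were lowest, and ALDH18A1 and DDIT3 (0.84), the stress factor CHOP, were highest. SESN2, ASNS, ALDH18A1 and GPT2 belong to more than 1 of these lists. ATF4 itself stood at 276 FPKM in the control library against 132 FPKM in the knockdown library, 47.9% of control. With a log2 ratio of -1.06 it is among the genes of this list counted at both limits. Whether the levels of the carriers follow ATF4 was not tested.

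**Figure D5:**
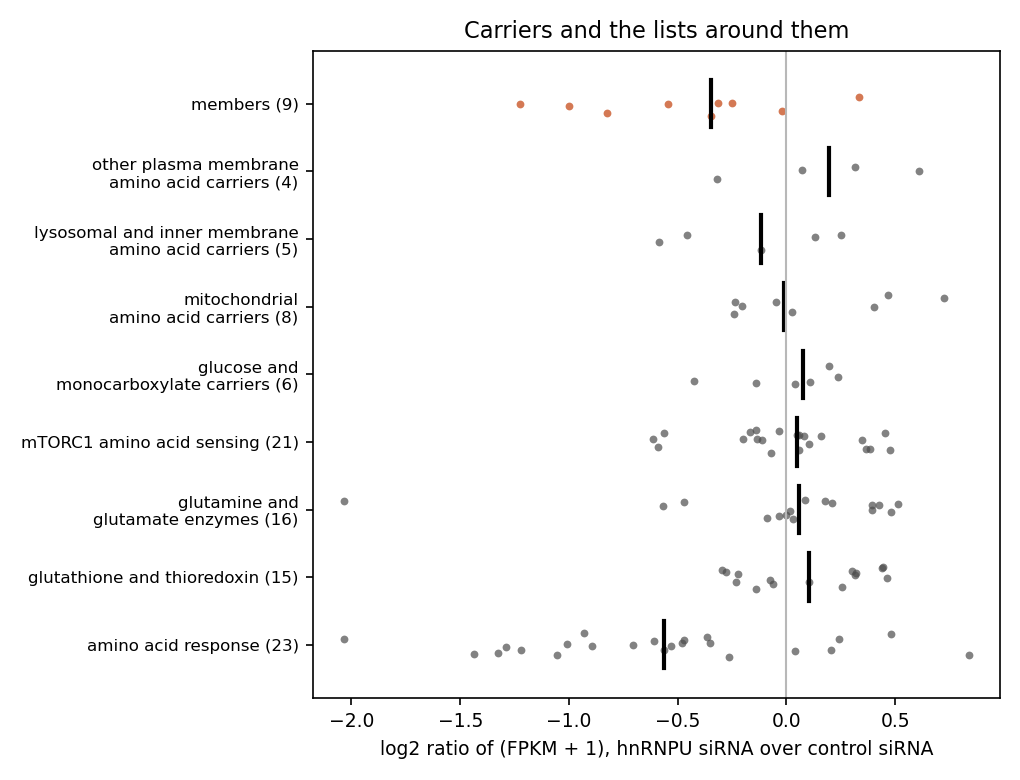
Log2 ratios of (FPKM + 1), hnRNPU siRNA over control siRNA, of the genes of each list that reached 5 FPKM in the higher library (points, number in brackets), with the median as a black bar and points spread vertically for sight only. The carriers have a median of -0.35 and the amino acid response genes one of -0.56, and the other lists have medians between -0.12 and 0.19.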

How the data were processed

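Per the labels' protocols, total RNA was taken up in Trizol and libraries followed a Life Technologies protocol. The submitters' processing notes list Bowtie and GRCh37. The annotation, counting program and strand setting were not given in the sources used here. The authors deposited 1 FPKM value per gene and library, and both value columns were used. Columns were matched to samples by the sample descriptions.

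The reads behind 1 library were inferred from short noncoding genes, where FPKM times length can come in steps of 1 read. The most common step was taken as 1 read (126 and 135 genes sat at exactly 1 step, within 1e-06). At these depths 47.4% of 911 such genes above 0 in the control library fell on whole steps. In the knockdown library it was 48.1% of 929, and the remaining genes did not fall on whole steps. Each carrier's values were then written as ratios of whole numbers over a shared length, compared with GENCODE 29 transcripts within 6%. Intervals of FPKM ratios are exact 95% Clopper-Pearson intervals of these reads, and those of levels are exact Poisson intervals. Depth recovery, read recovery and interval coverage were tested on simulated data with whole reads and known lengths, which does not cover fractions of reads. Computations used Python 3.11.15, numpy 2.4.6, pandas 2.3.3 and scipy 1.17.1.

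Log2 ratios use (FPKM + 1) in the knockdown over the control library, with no further scaling. Genes named are the 10 carriers, HNRNPU, and the 2 highest and 2 lowest measured genes of each of 8 lists, of which 1 is not reported here; others were chosen after their values were seen, among them SLC7A7, SLC7A8, SLC7A10, SLC7A11-AS1, SLC7A6OS, the copies of SLC7A5, SLC9A7, SESN2, GPT2 and ATF4. The carriers and lists were chosen with earlier results of these data known. No listed gene span overlapped that of a carrier. Promoter windows were matched by symbol. Alternatives were other pseudocounts, 3 rescalings and other minimum levels.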

Additional observations from a re-analysis of the deposited data

How the results depend on the processing

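No paired analysis was possible because there was 1 library per group. The log2 ratio of HNRNPU, -1.65, left the range of its counting error with 5 FPKM as the pseudocount (-1.61) and after rescaling by the median ratio (-1.69) or to the same FPKM sum (-1.62), shifts that follow from the added constant or factor. The reads recovered for HNRNPU may be too many by a whole factor, and its interval would then be wider. The number of carriers with a log2 ratio of -0.5 or less, 4, was 2 at a minimum of 20 FPKM, where SLC7A11 and SLC1A4 are no longer counted. The number at -1 or less, 2, was 1 after rescaling to the same FPKM sum, where SLC1A4 passed above the limit, and 0 at a pseudocount of 5 FPKM or a minimum of 20 FPKM. At 5 FPKM the ratio of SLC7A11 was -0.88 and that of SLC1A4 -0.60. The rescalings shifted every gene by 0.03, -0.04 and -0.01, and SLC38A2 changed sign under 1 of them (to 0.01); the other 8 detected carriers kept their sign under all 6 pseudocounts and rescalings. The median of the carriers ranged from -0.39 to -0.32. The share of all genes at -0.5 or less was 2.85% at a pseudocount of 5 FPKM and 2.22% with no minimum level, at -1 or less 0.302% and 0.209%, and at 0.5 or above 2.85% and 1.76%. Of the list medians, those of the other plasma membrane carriers, the glucose and monocarboxylate carriers and the mTORC1 list fell below 0 at a minimum of 1 FPKM (-0.02, -0.03 and -0.03), and the mTORC1 median lay just below 0 with no minimum; the mitochondrial median was 0.02 after rescaling to the same FPKM sum. At a minimum of 20 FPKM the medians were 0.21 for the mitochondrial, 0.25 for the mTORC1, 0.18 for the glutamine and glutamate, 0.07 for the other plasma membrane and -0.48 for the amino acid response list. The lysosomal list had no gene left at 20 FPKM. Depth limits SLC1A4 most among the detected carriers, at 588 reads in the knockdown library.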

Other observations

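The SLC genes with the highest ratios included carriers of vitamins, nucleotides and zinc, besides SLC25A22 (log2 ratio 0.73) and SLC7A2 (0.61) described above. They were chosen after the values were seen. SLC5A6, the sodium-dependent vitamin carrier for biotin and pantothenate, was highest of the 88 measured SLC genes at 7.20 FPKM in the control library and 13.2 FPKM in the knockdown library (log2 ratio 0.79). SLC25A33, a mitochondrial pyrimidine nucleotide carrier, stood at 10.8 and 19.0 FPKM (0.76). SLC39A7, which releases zinc from the endoplasmic reticulum and Golgi, stood at 45.4 and 68.1 FPKM (0.57), and SLC52A2, a riboflavin carrier, at 11.3 and 17.2 FPKM (0.56).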
